A study of Rattus norvegicus with 4 samples.

Results

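The 10 genes described here encode cytokines of the interleukin-1 (IL-1) and interleukin-6 (IL-6) families and the receptors that read them: the ligands Il1a, Il1b, Il18, Il33 and Il6, the antagonist Il1rn, and the receptor chains Il1r1, Il1rap, Il6r and Il6st. They were chosen by name, and each matched 1 of the 24005 gene symbols in a table of raw read counts. Of the 10, 8 passed the filter on low counts and were tested, and Il1a and Il6 did not pass it. RNA was sequenced from cartilage of male Sprague Dawley rats of 140 to 230 g, at an age of 8 to 12 weeks. The control group was 2 libraries labelled healthy, with control as their treatment label. The osteoarthritis group was 2 libraries whose disease label is osteoarthritis and whose treatment label is XGS, the herbal preparation Xiaogu San. By the series' title, osteoarthritis was induced with monosodium iodoacetate, a glycolysis inhibitor that damages cartilage. Disease and herbal treatment carry the same division of libraries, so they cannot be told apart. The design text speaks of normal mice as the controls while every sample is labelled rat, and a species difference was not tested. Whether each library is a different animal is not given in the labels, so p-values measure the spread between these libraries, which may be technical.

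Depth was 24492412 to 28270779 counts per library. The 10 chondrocyte markers that were looked up had counts in all 4 libraries. Of these, 6, such as Col2a1, lay below both controls in both osteoarthritis libraries, beside 26.5% of all tested genes. The other 4 overlapped. Levels are given in CPM, read counts over the TMM-scaled library size. Acan had 493 and 587 CPM in the controls and 70.9 and 2703 CPM in osteoarthritis, and Sox9 28.3 and 41.3 against 19.5 and 189 CPM. The summed level of the 10 was 20063 and 32836 CPM in the controls and 3866 and 5924 CPM in the osteoarthritis libraries. Col2a1 gave 13919 and 26813 CPM of that sum in the controls and 3431 and 385 CPM in osteoarthritis. Low counts were scarcer in the controls, where 317 and 505 genes had 1 to 5 counts, against 2578 and 2748 genes in the osteoarthritis libraries. The reason was not tested, and a count near 0 may not mean the same in both groups.

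IL-1 alpha and IL-1 beta bind the receptor chain encoded by Il1r1, which then recruits the accessory chain encoded by Il1rap and signals through MYD88 to NF-kappaB. The antagonist encoded by Il1rn occupies the same receptor without recruiting the accessory chain. IL-33 uses the same accessory chain with its own receptor, ST2, while IL-18 has a separate receptor pair. IL-6 binds the receptor encoded by Il6r, in membrane or shed form. The complex signals to STAT3 through gp130, encoded by Il6st and shared by most of the IL-6 family. In joints, IL-1 is known for driving chondrocytes to make matrix-degrading enzymes, and IL-6 is known as a cytokine of inflamed synovium.

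Two-sided testing with edgeR's quasi-likelihood method, adjusted by Benjamini-Hochberg over all 15282 tested genes and called under 0.05, called none of the 8 tested members, and 0% of all tested genes in either direction. At an unadjusted p under 0.05, 1 member was higher and 1 lower, beside 12.2% and 11.2% of all tested genes. DESeq2, run as an alternative, also called 1 member higher (7.24% of all tested genes) and 1 lower (8.26%). By position alone, 3 of the 8 lay above both controls in both osteoarthritis libraries (30% of all tested genes) and 1 lay below both (26.5%). These shares are near the background, so the counts of members say little about the family, and the values of the single genes follow. Exact permutation of 2 libraries against 2 gives no p smaller than 0.333, and such tests were not run.

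**Figure D1:**
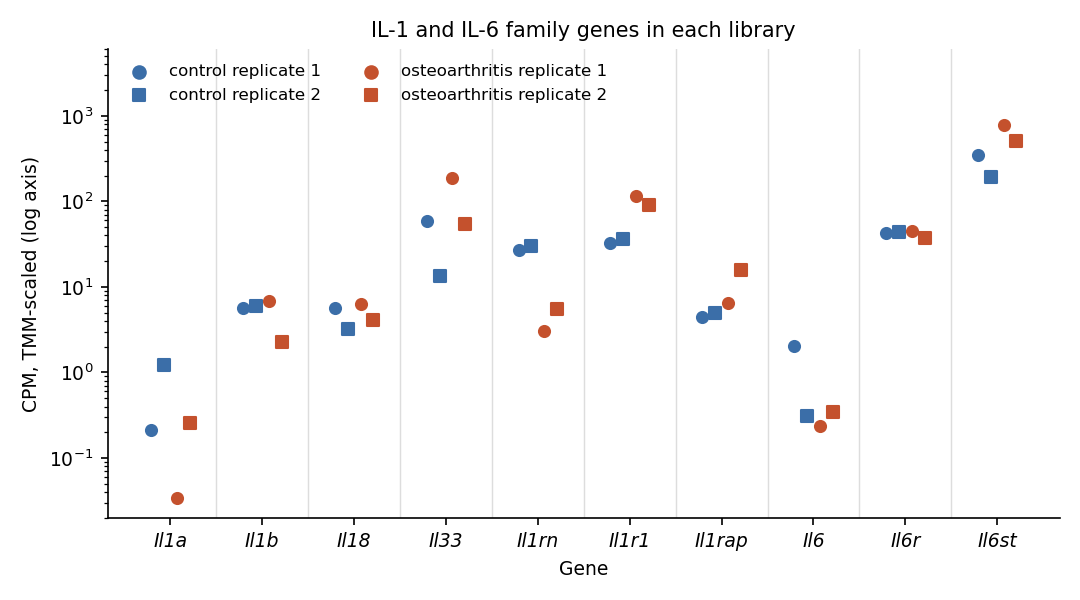
Level of each of the 10 genes in each library, in TMM-scaled CPM on a log axis; blue marks are control and orange marks osteoarthritis libraries, and each mark is 1 library. Il1rn has both osteoarthritis marks below both controls (3.05 and 5.49 against 26.9 and 30.5 CPM), and Il1r1, Il1rap and Il6st have both above.

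Among the 4 IL-1 family ligands described here, Il1a, Il1b, Il18 and Il33, no gene separated the groups. Il1b, the secreted inflammatory form of IL-1, had 5.74 and 6.06 CPM in the controls and 6.85 and 2.29 CPM in the osteoarthritis libraries. Osteoarthritis replicate 1 was the highest of the 4 and replicate 2 the lowest, so the groups overlap. The log2 fold change of osteoarthritis over control was -0.37 ± 0.80 (SE; edgeR adjusted p = 0.834), with a 95% interval from -2.39 to 1.66. Without osteoarthritis replicate 2 it was 0.23, and without replicate 1 it was -1.40. Il18, which promotes interferon-gamma production by lymphocytes, had 5.74 and 3.26 CPM in the controls and 6.31 and 4.15 CPM in the osteoarthritis libraries (0.22 ± 0.74 on the log2 scale, edgeR adjusted p = 0.899). Its direction turned without control replicate 2 (-0.12) and without osteoarthritis replicate 1 (-0.14).

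Il33, a nuclear cytokine released from damaged barrier, endothelial and stromal cells, was the most variable of the tested ligands. It had 58.2 and 13.3 CPM in the controls and 189 and 55.0 CPM in the osteoarthritis libraries. Osteoarthritis replicate 1 stood above the other 3, but replicate 2 lay just below the higher control. Within the controls the libraries differed 4.36-fold and within osteoarthritis 3.44-fold, so the fitted log2 fold change of 1.77 ± 0.89 (edgeR adjusted p = 0.301) is about as large as the spread between libraries of the same group. Without osteoarthritis replicate 1 it was 0.61, and without replicate 2 it was 2.41. Without control replicate 1 it was 3.14, and without control replicate 2 it was 1.08. The summed level of endothelial markers was also higher in replicate 1 than in replicate 2 of each group. It was 924 and 454 CPM in the controls and 1362 and 837 CPM in osteoarthritis. Pecam1 gave 175 and 80.7 CPM of that sum in the controls and 494 and 197 CPM in osteoarthritis. Vwf, another of these markers, went the other way in osteoarthritis, with 253 CPM in replicate 1 and 320 CPM in replicate 2. The adipocyte markers had 1201 and 312 CPM in the controls and 5531 and 58.1 CPM in osteoarthritis. Their part in the levels of Il33 was not tested.

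Il1a, the form of IL-1 that is active without cleavage, was near the limit of detection. It had 6 and 32 counts in the controls and 1 and 6 counts in the osteoarthritis libraries. The exact 95% Poisson intervals were 2.20 to 13.1 and 21.9 to 45.2 counts for the controls and 0.0253 to 5.57 and 2.20 to 13.1 counts for osteoarthritis. Control replicate 2 was above the other 3 beyond counting error, and control replicate 1 had the same count as osteoarthritis replicate 2. These intervals, like those below, cover counting error only.

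Of the 8 tested members, the antagonist had the fitted fold change farthest from 0. Il1rn, the IL-1 receptor antagonist, had 26.9 and 30.5 CPM in the controls and 3.05 and 5.49 CPM in the osteoarthritis libraries. All 4 libraries rest on at least 90 counts, and the groups stand clear of each other. The group means were 28.7 ± 2.55 and 4.27 ± 1.72 CPM (SD, n = 2 each), and the log2 fold change was -2.75 ± 0.49 (SE; 95% interval -3.99 to -1.50), or 6.71-fold lower in osteoarthritis. The unadjusted p was 0.00208 by edgeR's quasi-likelihood test, which ranked 367 of the 15282 genes, and the adjusted p of 0.0865 missed the threshold. DESeq2 gave an adjusted p of 5.68e-05. Over the 14 alternatives the log2 fold change ran from -3.22 to -2.13 with the same sign, and the adjusted p from 5.68e-05 to 0.317. The call was made in 6 alternatives, among them the fits without either osteoarthritis replicate. In those fits the spread comes from the controls alone, which lay close together, so they do not show that the call is robust. The call was not made in the fits without either control replicate.

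Markers of white blood cells were lower in the same libraries. All 9 tested neutrophil and precursor markers lay below both controls, beside 26.5% of all tested genes. The tenth, Ltf, was at 0 in 3 of the 4 libraries. The summed level of that list was 6920 and 10889 CPM in the controls and 108 and 568 CPM in osteoarthritis. Of 10 macrophage and monocyte markers, 6 lay below both controls and 1, Mrc1, above both, with a summed level of 5263 and 7776 against 766 and 1432 CPM. Lyz2, lysozyme, gave 4705 and 6879 CPM of that sum in the controls and 382 and 1100 CPM in osteoarthritis. Csf1r, the receptor that macrophages need to survive, had 106 and 204 CPM in the controls and 82.2 and 81.2 CPM in osteoarthritis. Neutrophils and macrophages are known sources of the antagonist, and their part in the level of Il1rn was not tested. In such bulk samples, fewer cells of a type and less RNA per cell cannot be told apart.

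**Figure D2:**
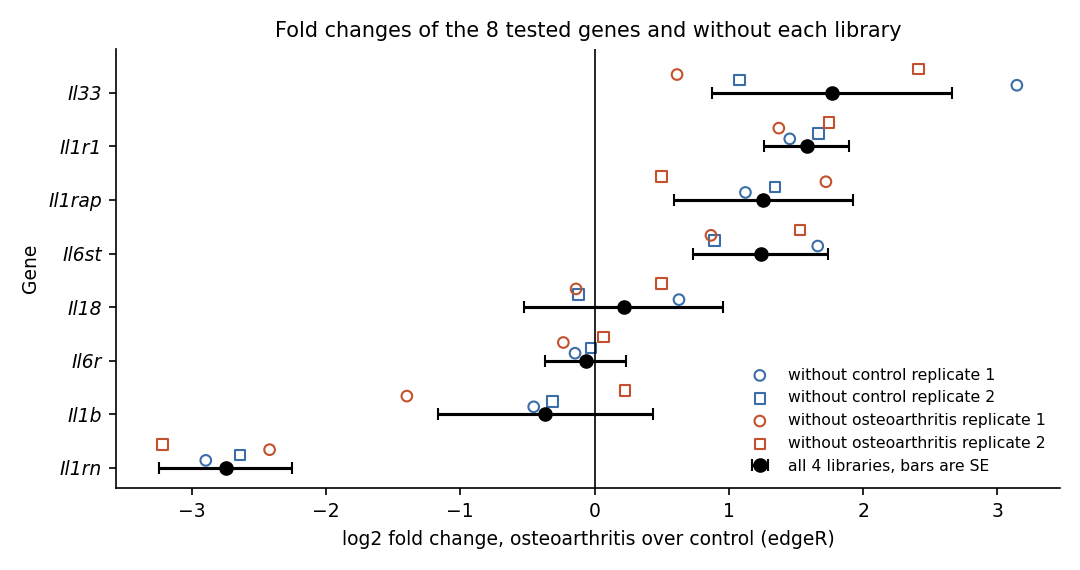
Fitted log2 fold change of osteoarthritis over control for the 8 tested genes, with black points for all 4 libraries, bars for the SE, and open marks for fits without 1 library. Il1rn stays between -3.22 and -2.42 and Il1r1 between 1.37 and 1.75 without any 1 library, whereas Il1b, Il18 and Il6r cross 0.

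Both chains of the IL-1 receptor lay above the controls. Il1r1, the signalling receptor, had 32.6 and 36.2 CPM in the controls and 114 and 91.3 CPM in osteoarthritis. The controls lay close together, and the lower osteoarthritis library was still far above them. Its log2 fold change was 1.58 ± 0.31 (SE; 95% interval 0.79 to 2.37), 2.99-fold, with an unadjusted p of 0.00336 and an edgeR adjusted p of 0.0958. DESeq2 gave an adjusted p of 0.00207, and over the 14 alternatives the adjusted p ran from 0.00207 to 0.346 and the log2 fold change from 1.37 to 1.75. Il1r1 passed in 5 alternatives, including those without either osteoarthritis replicate, where the spread comes from the controls alone. It did not pass without either control replicate. Il1rap, the accessory chain, had 4.43 and 4.91 CPM in the controls and 6.55 and 15.8 CPM in osteoarthritis. Most of its difference lay in osteoarthritis replicate 2, which was 2.42-fold above replicate 1. The log2 fold change was 1.26 ± 0.66 (edgeR adjusted p = 0.319), and it was 0.50 without that library.

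Some fibroblast and endothelial markers lay above both controls, as did 30% of all tested genes. Of 10 synovial and tendon fibroblast markers, 5 lay above both controls, 1, Prg4, the lubricin of the joint surface, below both, and 4 overlapped. Their summed level was 16488 and 44457 CPM in the controls and 33724 and 143804 CPM in osteoarthritis, so on that sum the groups overlap. Col1a1 gave 7108 and 33210 CPM of it in the controls and 20226 and 102855 CPM in osteoarthritis. Of 8 endothelial markers, 3 lay above both controls, 0 below both and 5 overlapped. Cd34, carried by vessel lining and stromal progenitors, had 20.6 and 19.1 CPM in the controls and 140 and 121 CPM in osteoarthritis. It had the smallest unadjusted p of the fibroblast list by edgeR's quasi-likelihood test, so it does not stand for the others. Pdgfra of that list overlapped, with 70.4 and 95.4 CPM in the controls and 91.0 and 210 CPM in osteoarthritis. The endothelial marker Kdr also overlapped, with 78.1 and 27.7 against 66.8 and 39.8 CPM. The part of these cells in the levels of Il1r1 and Il1rap was not tested.

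**Figure D3:**
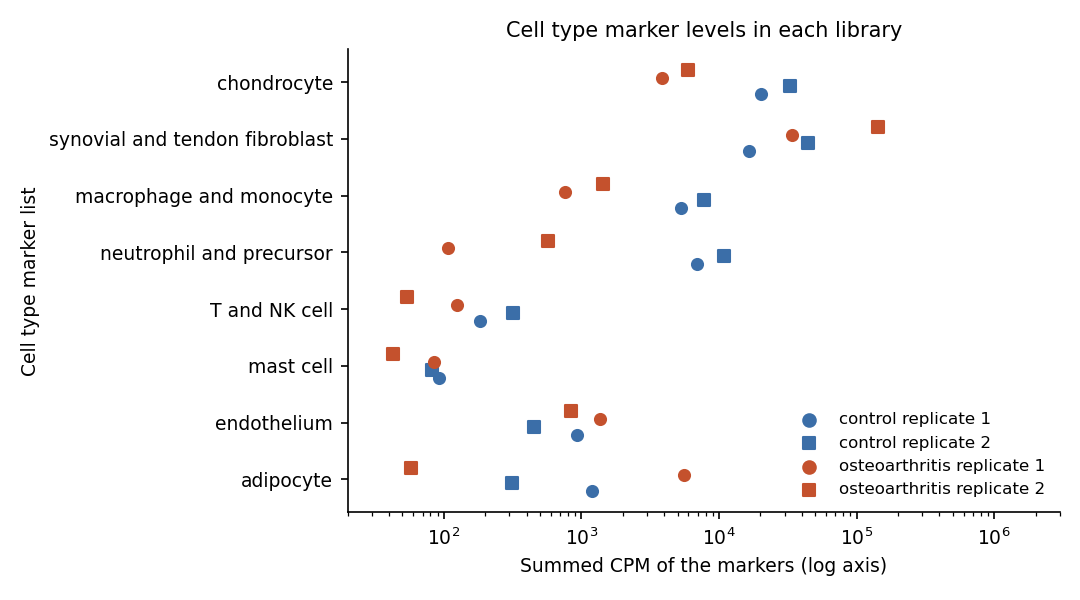
Summed CPM of 8 cell type marker lists in each library, on a log axis; blue marks are control and orange marks osteoarthritis libraries. Neutrophil and macrophage markers are lower in both osteoarthritis libraries, and the adipocyte sum is highest in osteoarthritis replicate 1 (5531 CPM) and lowest in replicate 2 (58.1 CPM).

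RefSeq's rat promoter table held all 10 genes, with 12 annotated starts. The 250 bases before the start are shown for Il1rn, the member that lay below the controls, and for Il1r1 and Il1rap, the 2 chains of 1 receptor that lay above them. Il1rap has 2 overlapping starts, and the first in the table is shown. The listed starts of Il1rn and Il1r1 lie inside the span that RefSeq gives the gene, so other starts may exist further upstream. Capitals mark matches on either strand to the TATA box (TATAAA), AP-1 (TGANTCA), STAT (TTCNNNGAA) or NF-kappaB consensus. Positions are of the GRCr8 assembly, chr3:27520072-27520321 on the plus strand for Il1rn, chr9:50034133-50034382 on the plus strand for Il1r1 and chr11:87704343-87704592 on the minus strand for Il1rap.
Il1rn: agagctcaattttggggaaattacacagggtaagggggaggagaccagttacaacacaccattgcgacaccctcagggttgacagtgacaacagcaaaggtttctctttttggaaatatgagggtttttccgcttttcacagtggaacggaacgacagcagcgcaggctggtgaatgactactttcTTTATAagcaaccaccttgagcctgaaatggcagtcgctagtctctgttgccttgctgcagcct
Il1r1: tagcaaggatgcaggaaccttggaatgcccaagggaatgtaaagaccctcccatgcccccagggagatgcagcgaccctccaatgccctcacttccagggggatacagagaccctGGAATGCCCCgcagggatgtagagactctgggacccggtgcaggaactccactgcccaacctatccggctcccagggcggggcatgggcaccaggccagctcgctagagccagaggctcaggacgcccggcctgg
Il1rap: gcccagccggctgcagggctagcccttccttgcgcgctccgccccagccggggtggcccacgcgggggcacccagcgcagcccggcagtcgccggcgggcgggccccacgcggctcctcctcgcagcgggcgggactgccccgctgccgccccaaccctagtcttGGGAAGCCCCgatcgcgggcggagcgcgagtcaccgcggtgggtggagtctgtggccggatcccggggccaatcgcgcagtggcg
The Il1rn stretch held a match to the TATA box letters on the opposite strand only, printed as TTTATA, that begins 64 bases before the start. On either strand, that motif was found in 12.9% of 33469 promoters of that length. The Il1rn stretch held no match to the other 3 motifs. The stretches of Il1r1 and Il1rap each held 1 match to the NF-kappaB consensus, 135 and 85 bases before the start, which 6.33% of promoters held. The promoter of Il6 also held an NF-kappaB match, and those of the other 7 members held none. A match in letters is a description of the sequence, not a measured binding site, and the counts are per gene, so they do not show which start was used.

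In the IL-6 branch the ligand was scarce and the shared receptor abundant. Il6 had 58 and 8 counts in the controls and 7 and 8 counts in the osteoarthritis libraries. The exact 95% Poisson intervals were 44.0 to 75.0 and 3.45 to 15.8 counts for the controls and 2.81 to 14.4 and 3.45 to 15.8 counts for osteoarthritis. Control replicate 1 stood apart, and the other control was within counting error of both osteoarthritis libraries. Il6r, the ligand-binding receptor, was the steadiest member, with 42.3 and 43.9 CPM in the controls and 44.9 and 37.6 CPM in osteoarthritis. Its log2 fold change was -0.06 ± 0.30 (edgeR adjusted p = 0.93), with a 95% interval from -0.83 to 0.70, which still allows a change of that size in either direction.

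Il6st, gp130, had 348 and 195 CPM in the controls and 778 and 502 CPM in osteoarthritis. The lower osteoarthritis library was above the higher control, and replicate 1 was the higher library in each group. The group means were 271 ± 108 and 640 ± 195 CPM (SD, n = 2 each), which is 2.36-fold. On the log2 scale the difference was 1.24 ± 0.50 (SE; 95% interval -0.03 to 2.50), with an edgeR adjusted p of 0.222 and a DESeq2 adjusted p of 0.0697. Without each library in turn the log2 fold change ran from 0.87 to 1.66. It was 1.53 without osteoarthritis replicate 2 and 0.87 without osteoarthritis replicate 1.

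Levels can be compared between genes on the deposited FPKM scale, which divides by gene length. In the controls Il6st had the highest mean, 36.2 ± 16.5 FPKM (SD, n = 2), apart from the next gene. Il33, Il6r and Il1rn followed at 14.3 ± 13.2, 10.3 ± 0.39 and 10.3 ± 0.26 FPKM, and these 3 did not differ beyond their spread. Il18 and Il1r1 overlapped at 6.21 ± 2.78 and 5.99 ± 0.0552 FPKM, Il1b had 4.33 ± 0.108 FPKM, and Il1rap, Il6 and Il1a had 1.31, 1.12 and 0.338 FPKM. In osteoarthritis Il6st again had the highest mean, 94.3 ± 47.2 FPKM, but its range overlapped that of Il33 (55.8 ± 50.9). Il1r1 came next by mean at 19.8 ± 7.22 FPKM. Il1rn had a mean of 1.60 ± 0.32 FPKM, below Il1rap (3.19 ± 1.27) and above only Il6 (0.284) and Il1a (0.0683). By library, Il1rn (1.37 and 1.82 FPKM) overlapped Il1b (6.28 and 1.55 FPKM). Of the summed FPKM of the 10 genes, Il6st took 41.9% and 36.8% in the controls and 45.8% and 52.2% in osteoarthritis. Il1rn took 8.87% and 15.7% in the controls and 0.492% and 1.56% in osteoarthritis, lower in both than in either control.

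Ratios of genes within a library do not depend on how libraries are scaled. The antagonist exceeded IL-1 beta 2.30-fold and 2.47-fold in FPKM in the controls. In osteoarthritis replicate 1 the ratio was 0.219 (95% counting interval 0.169 to 0.282), and in replicate 2 it was 1.18 (0.847 to 1.65). Both osteoarthritis ratios lay below both controls, and the osteoarthritis libraries differed from each other beyond their counting intervals. The antagonist set against its receptor, Il1rn over Il1r1, gave 1.70 and 1.74 in the controls and 0.0551 and 0.124 in osteoarthritis, and here the groups were far apart relative to their spread. Il1r1 over Il1b gave 1.35 and 1.42 in the controls and 3.97 and 9.46 in osteoarthritis. Il1r1 over Il1rap did not separate the groups, with 4.58 in each control and 10.9 and 3.59 in osteoarthritis. Il6st over Il6r, gp130 against the specific receptor, gave 4.51 and 2.44 in the controls and 9.52 and 7.33 in osteoarthritis. Il33 over Il18 gave 2.90 and 1.17 in the controls and 8.56 and 3.78 in osteoarthritis, and Il6st over Il1r1, with 8.04 and 4.07 against 5.13 and 4.15, overlapped. These ratios rest on the same counts as the values above and are no separate evidence.

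**Figure D4:**
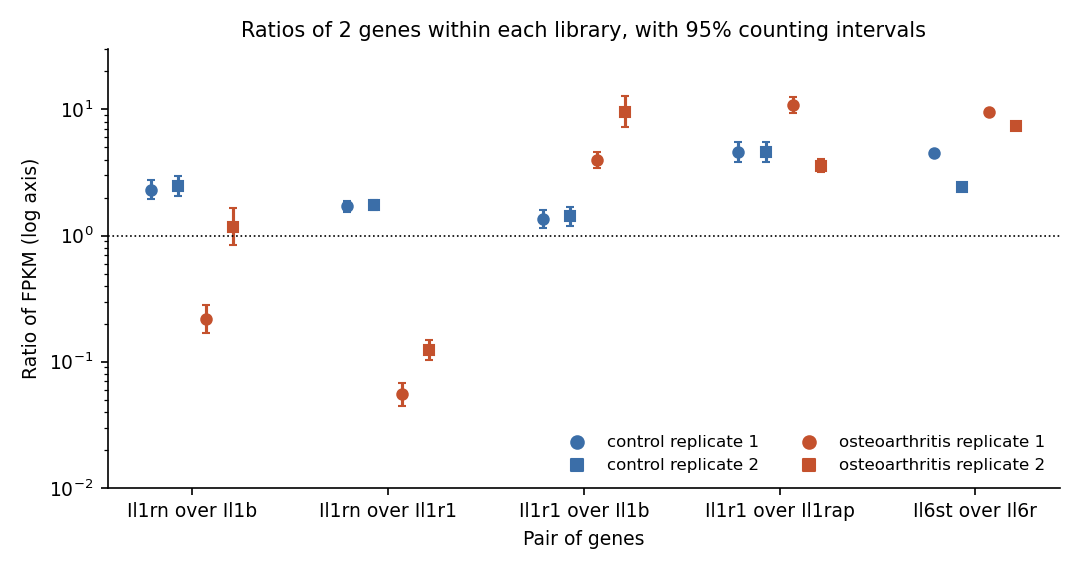
Ratio of the FPKM of 2 genes within each library, on a log axis; blue marks are control and orange marks osteoarthritis libraries, and bars are exact 95% intervals for counting error only. Il1rn over Il1r1 is 1.70 and 1.74 in the controls and 0.0551 and 0.124 in osteoarthritis, while Il1r1 over Il1rap overlaps between the groups.

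Of the other IL-1 family genes, 14 were listed and 7 tested, with a median log2 fold change of -0.03 beside 0.15 over all tested genes. Of the 7, 2 lay above and 1 below both controls. Over all tested genes, 30% lay above and 26.5% below, and DESeq2 called 7.24% higher and 8.26% lower. Those shares are the background for the counts of each list that follows. The quasi-likelihood test called 0 of them, and DESeq2 called 1 higher (Il1rl1) and 1 lower (Il1r2). Il1r2, the decoy receptor that binds IL-1 without signalling, had 16.4 and 11.4 CPM in the controls and 3.09 and 3.20 CPM in osteoarthritis (-2.14 ± 0.56 on the log2 scale, adjusted p = 0.128 by edgeR, DESeq2 adjusted p = 0.00672, likelihood ratio test of edgeR 0.0323). It lay below both controls, as Il1rn did. Il1rl1, the IL-33 receptor ST2, had 4.19 and 2.42 CPM in the controls and 10.1 and 15.9 CPM in osteoarthritis (1.97 ± 0.63, adjusted p = 0.161 by edgeR and 0.0363 by DESeq2). Il1rl2, the IL-36 receptor, lay above both controls, with 0 and 34 counts in the controls and 68 and 129 in osteoarthritis. Il18bp, which traps IL-18, had 19.9 and 13.7 CPM in the controls and 21.9 and 19.4 CPM in osteoarthritis.

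Of 17 other IL-6 family genes, 12 were tested, with a median log2 fold change of 0.52, 5 above and 2 below both controls, and 0 called by the quasi-likelihood test or DESeq2. Osmr, the oncostatin M receptor chain that pairs with gp130, had 39.7 and 11.6 CPM in the controls and 69.5 and 54.2 CPM in osteoarthritis. Its ligand Osm was on the other side, with 6.12 and 4.45 CPM in the controls and 2.10 and 1.81 CPM in osteoarthritis. Cntfr, the receptor of ciliary neurotrophic factor, had 27.2 and 10.0 CPM in the controls and 8.38 and 1.43 CPM in osteoarthritis.

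All 18 genes of the inflammasome and ligand processing list were tested, with a median log2 fold change of -0.34. Of them, 8 lay below and 5 above both controls, beside 26.5% and 30% of all tested genes. The quasi-likelihood test called 0 of them, DESeq2 called 4 lower, and the likelihood ratio test of edgeR called Pycard, Elane, Ctsg and Prtn3 (adjusted p from 0.000342 to 0.00367). Its 3 lowest members, Elane, Ctsg and Prtn3, at -5.41, -5.22 and -5.50, are granule proteases of neutrophil precursors that can cleave IL-1 family ligands, and Elane and Prtn3 also belong to the neutrophil list above. Pycard, the inflammasome adaptor ASC, had 40.1 and 34.4 CPM in the controls and 10.5 and 6.74 CPM in osteoarthritis (-2.11 ± 0.40, adjusted p = 0.0911 by edgeR, DESeq2 adjusted p = 0.000882). Casp1, the protease that matures IL-1 beta and IL-18, overlapped between the groups, with 23.6 and 16.3 CPM in the controls and 24.9 and 5.88 CPM in osteoarthritis. It was named after its value was seen.

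The 18 IL-1 receptor signalling genes had a median log2 fold change of 0.11 and a range from -0.86 to 1.31, with 4 above and 4 below both controls. Myd88, the adaptor of the receptor, had 49.9 and 48.4 CPM in the controls and 39.4 and 34.0 CPM in osteoarthritis, and Irak3, an inhibitory kinase of the pathway, had 42.1 and 32.0 against 62.5 and 60.2 CPM. Mapk14 and Irak1, kinases of the pathway, were at -0.57 and 0.42. The 15 gp130 signalling genes had a median of 0.39, with 4 above and 2 below both controls. Stat3, the main transcription factor of IL-6 signalling, had 117 and 107 CPM in the controls and 180 and 261 CPM in osteoarthritis (0.98 ± 0.37, adjusted p = 0.199 by edgeR). Gab1, a docking adaptor, was at 1.34 ± 0.34, Sos1 at 0.98 and Stat5a at -1.29 (edgeR adjusted p = 0.122, 0.206 and 0.163).

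Response genes did not share a direction. Of 23 genes known to respond to IL-1, 18 were tested, with 4 above and 5 below both controls. Their median was 0.15 in the main fit, equal to that of all tested genes. With limma-voom, another test, it was 0.62 beside 0.19. Lcn2, an iron-binding protein also stored in neutrophil granules, had 396 and 626 CPM in the controls and 20.3 and 37.7 CPM in osteoarthritis (-4.14 ± 0.55, adjusted p = 0.0824 by edgeR). The proteases Mmp9 and Mmp13 were at -4.52 and -5.17, and Adamts4, an aggrecan-cleaving enzyme, was at 1.57 ± 0.43, with 6.69 and 8.67 CPM in the controls and 20.2 and 25.3 CPM in osteoarthritis (adjusted p = 0.136 by edgeR). Of 17 STAT3 response genes, 14 were tested, with a median of 0.25, 5 above and 0 below both controls. Mcl1, a survival factor, was at 0.78 and Cebpd, an acute phase transcription factor, at 0.71, and Stat3 and Osmr belong to this list too. The quasi-likelihood test called 0 genes of these 4 lists. DESeq2 called 2 higher and 4 lower among the IL-1 response genes, 1 higher and 0 lower among the gp130 signalling genes, and 0 in the other 2 lists. Of the genes named from these lists, the likelihood ratio test of edgeR called Lcn2, Mmp9, Mmp13 and Gab1 (adjusted p = 8.53e-07, 0.00164, 0.0101 and 0.0481).

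**Figure D5:**
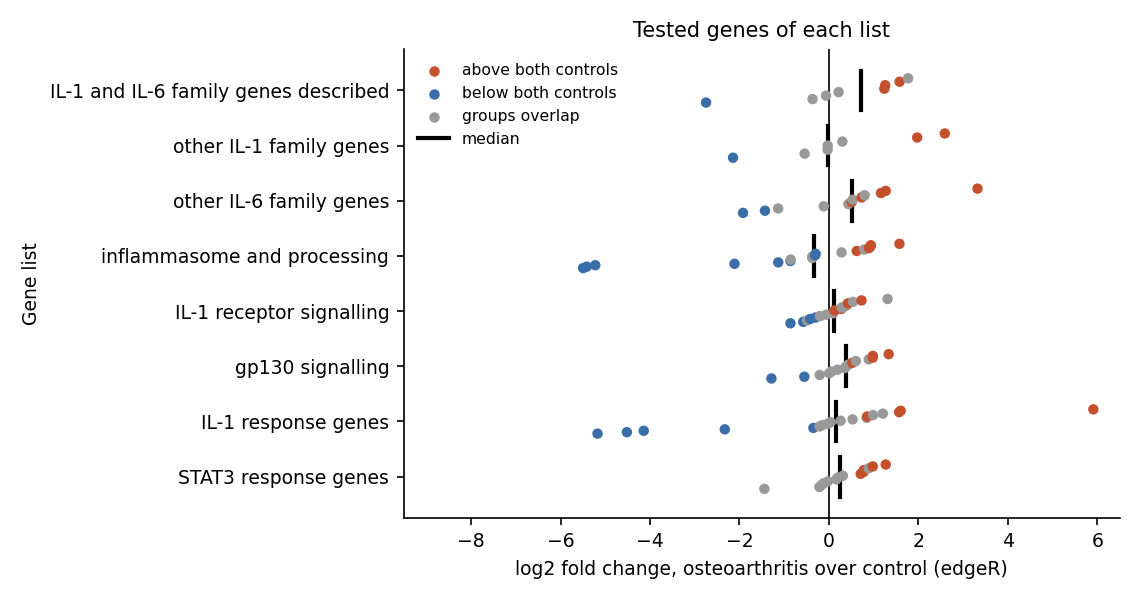
Fitted log2 fold change of osteoarthritis over control for each tested gene of the family and of 7 pathway lists; each point is 1 gene, coloured by whether its osteoarthritis libraries lie above both controls, below both or overlap, and black lines are medians. The medians lie between -0.34 and 0.73, and the lowest points are neutrophil granule proteases, Lcn2, Mmp9 and Mmp13.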

How the data were processed

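Per the submitters' processing notes, reads were handled with fastp, a trimmer, and TopHat, an aligner, and the build listed is hg38, a human one, although the symbols are rat symbols. Counter, annotation, versions and strandedness: not given in the sources used here. The authors deposited raw read counts per gene, 1 column per library. The authors also deposited FPKM values, which are those counts divided by gene length and column total, so they are no separate measurement.

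Libraries were grouped by disease label. The members and lists were chosen with earlier results of these data known. Counts were analysed in R 4.3.3 with edgeR 4.0.16: filterByExpr kept 15282 genes, library sizes were TMM-scaled, and the quasi-likelihood test was adjusted by Benjamini-Hochberg over all of them. SE is the log2 fold change divided by the root of F. Alternatives used DESeq2 1.42.0, limma 3.58.1, other scalings and filters, log2(FPKM + 1), log2(FPKM + 0.1), and fits without each library, where a lone library takes its spread from the other group. Pathway genes were named by unadjusted p, up to 4 in each list, from those with a mean of at least 1 CPM. Libraries of a group differed beyond counting noise. Scripts were tested on simulated data. Promoter sequences come from RefSeq's GRCr8 table, matched by symbol. Marker lists of osteoblasts, erythroid cells, B cells, T and NK cells, mast cells, epithelium and skeletal muscle were also looked up.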

Additional observations from a re-analysis of the deposited data

How the results depend on the processing

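The main test called 0 genes higher and 0 lower in osteoarthritis, and 3564 had an unadjusted p under 0.05. DESeq2 called 1107 higher and 1262 lower, the likelihood ratio test of edgeR 965 and 978, and the fit with no filter on low counts 677 and 751. Each of these 3 called 1 member higher (Il1r1) and 1 lower (Il1rn). With at least 10 CPM in 2 samples, 58 genes were higher and 238 lower, with 0 members higher and 1 lower. Limma-voom, the other scalings and both FPKM fits called 0 in either direction. The background shares by position, 30% above and 26.5% below, are for both osteoarthritis libraries against both controls. They do not apply to fits without 1 library, where fewer libraries have to lie on the same side. No share of all tested genes is given for those fits, so their counts of members, called or by position, say nothing about the family. Without each library in turn, 0 to 1297 genes were higher and 0 to 1105 lower, 0 to 3 members higher and 0 to 1 lower, and 3 to 7 members lay above and 1 to 3 below the remaining controls. In each such fit the lone library of a group takes its spread from the other group. A call there does not rest on replicates in both groups.

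Among the tested members, 3 changed sign. Il6r, at -0.06, was at 0.073 with library size alone and at 0.032 on both FPKM scales, and ran from -0.23 to 0.069 without each library. Il18 ran from -0.14 to 0.63 and Il1b from -1.40 to 0.23 without each library. Il1rn, Il1r1, Il1rap, Il6st and Il33 kept their sign under every alternative that tested them. The cause of these changes was not tested. Over all tested genes the median log2 fold change was 0.15 with TMM, 0.27 with library size alone and 0.05 with upper quartile factors. With limma-voom it was 0.19, and list medians moved too. The IL-1 response genes went from 0.15 to 0.62, the other IL-1 family genes from -0.03 to 0.32 and the other IL-6 family genes from 0.52 to 0.90. Depth limits Il1a and Il6, which had at most 58 counts in any library.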

Other observations

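A few scarce genes of these pathways were found mainly in the osteoarthritis libraries, and they were picked out after their values were seen. Ptgs2, the inducible enzyme of prostaglandin synthesis, had 0 and 6 counts in the controls and 24 and 310 counts in osteoarthritis. Il11, an IL-6 family cytokine of stromal cells, had 0 and 8 counts in the controls and 16 and 60 counts in osteoarthritis. Il31ra, a receptor chain for the itch cytokine IL-31, had 0 and 0 counts against 37 and 7, and Lif, leukemia inhibitory factor, 0 and 0 against 4 and 23. Il36b, an IL-36 cytokine, was on the other side, with 99 and 6 counts in the controls and 0 and 0 in osteoarthritis. The scarcity of low counts in the controls, given above, bears on each of these genes, and its part was not tested.

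Other marker lists had these summed levels. T and NK cell markers had 182 and 317 CPM in the controls and 125 and 54.3 CPM in osteoarthritis. Nkg7 gave 86.6 and 184 CPM of that sum in the controls and 4.95 and 6.57 CPM in osteoarthritis. Of the 7 tested T and NK cell markers, 3 lay below both controls, 1 above both and 3 overlapped. Mast cell markers had 92.3 and 81.7 against 84.6 and 43.0 CPM. Erythroid markers had 36924 and 31428 CPM in the controls and 447 and 1131 CPM in osteoarthritis, B cell markers 301 and 419 against 12.6 and 25.1 CPM, and osteoblast and osteocyte markers 936 and 4395 against 49.4 and 77.9 CPM. Epithelial markers had 36.3 and 43.9 against 13.5 and 6.40 CPM, and skeletal muscle markers 2218 and 119 against 335 and 426 CPM. Cdh1 gave 27.8 and 37.2 CPM of the epithelial sum in the controls and 3.36 and 2.20 CPM in osteoarthritis. Of the 3 tested epithelial markers, 1 lay below both controls and 2 overlapped.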
